A study of Mus musculus with 2 samples.

Results

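The miR-192, miR-194 and miR-215 microRNAs (miRNAs) were followed in small RNA libraries from the jejunal smooth muscle layer (tunica muscularis) of mice at postnatal day 15. Members were chosen by name as every mature entry of the 3 miRNAs, which gave 7 of the 1147 entries of the table, and the rule itself sets no threshold on the values. There was 1 library for *Dnmt1*-WT and 1 for *Dnmt1*-KO, so every comparison is between 2 libraries, with no p-value and no measure of the spread between animals. The *Dnmt1*-KO mice lack *Dnmt1*, the maintenance DNA methyltransferase, in smooth muscle cells, where a *Myh11* promoter drives *Cre* and eGFP. The *Dnmt1*-WT mice carried the same *Cre*-eGFP transgene as the study defines them, and both groups were on a C57BL/6 background. Both samples are labelled with the Dnmt1lox/lox allele and the transgene Tg(Myh11-cre,-EGFP)2Mik, and the descriptions of both give the mutant genotype. Groups were therefore taken from the genotype field and the titles, which differ. Males and females of both genotypes were used, and whether their RNA was pooled is not stated. The muscle strips were separated from the mucosa by peeling and were not sorted, so they hold every cell type that stayed on the strip.

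These miRNAs are best known from epithelium. They are abundant in the intestinal lining, and also in liver and kidney, where hepatocyte nuclear factors drive their transcription. A miRNA binds its targets mainly through the seed, bases 2 to 8 from its 5′ end. miR-192 and miR-215 have the same seed and share targets, whereas miR-194 has an unrelated seed and comes from the same primary transcripts. Hairpins release a 5p and a 3p strand, of which 1 is usually kept as the mature miRNA.

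The family is encoded at 2 loci, each with 1 copy of miR-194, and the sequences below show which product can be traced to which locus. Mature sequences of all 7 members were found in RefSeq (build GRCm38.p6) and are given 5′ to 3′ with the seed in capitals.
miR-192-5p: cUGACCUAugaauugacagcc
miR-215-5p: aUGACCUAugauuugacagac
miR-194-5p: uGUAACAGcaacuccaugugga
miR-194-1-3p: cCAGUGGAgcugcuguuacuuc
miR-194-2-3p: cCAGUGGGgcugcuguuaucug
miR-215-3p: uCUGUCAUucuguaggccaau
miR-192-3p: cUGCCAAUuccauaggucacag

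miR-192-5p and miR-215-5p were the only mature miRNAs in the RefSeq table with the seed UGACCUA. They had 18 of 21 bases in common and differed by C1A, A12U and C20A, with positions counted from the 5′ end and the base of miR-192-5p first. No other mature miRNA had the seed of miR-194-5p. The 3p strands of miR-194 had 18 of 22 bases in common and differed by A8G, C19U, U20C and C22G, with the base of miR-194-1-3p first, so that the seeds differ as well. The seed of miR-194-2-3p was also found in miR-6926-5p and miR-7055-5p, which were not on the table.

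The Mir194 hairpins show why only the 3p strand separates the loci. Capitals mark the mature strands, and the first run of capitals, miR-194-5p, is the same in both.
Mir194-1: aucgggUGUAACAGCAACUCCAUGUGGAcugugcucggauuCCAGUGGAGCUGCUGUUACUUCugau
Mir194-2: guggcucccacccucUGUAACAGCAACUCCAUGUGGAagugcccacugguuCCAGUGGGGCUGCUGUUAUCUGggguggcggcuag

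On GRCm38, Mir194-1 (chr1:185313319-185313385, plus strand) lies 195 bases before Mir215 (chr1:185313581-185313692, plus strand). Both are within an intron of *Iars2*, which runs on the opposite strand. On their own strand, Mir194-1 lies in an intron and Mir215 overlaps an exon of the antisense transcript *2010103J01Rik*. The other pair is on chromosome 19, where Mir194-2 (chr19:6264643-6264728, plus strand) lies 115 bases before Mir192 (chr19:6264844-6264932, plus strand). Neither overlaps another annotated gene, and the nearest is *Atg2a*, which ends 2307 bases before Mir194-2. Thus miR-215 and miR-194-1-3p come from chromosome 1 alone, miR-192 and miR-194-2-3p from chromosome 19 alone, and miR-194-5p from both.

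The values are normalised read counts as deposited, where 1 unit is close to 1 read. The *Dnmt1*-WT library had a total of 5741906 and the *Dnmt1*-KO library one of 4754677. On this scale the median KO/WT ratio of the 794 entries above 0 in both libraries was 1, and the totals were not equal. Equal totals multiply every KO/WT ratio by 1.21, a shift of 0.27 on the log2 scale. Intervals are 95% and cover counting error only, with each read taken as a separate count. Amplified reads with no molecular identifier cannot be counted as separate molecules, so the intervals may be too narrow even for that error. The tissue label was checked on miRNAs of smooth muscle: miR-143-3p was the most abundant entry of both libraries. All 7 miRNAs of the smooth muscle list were on the table, of which miR-1b, at 3 in WT, was at 0 in KO. All 12 of an intestinal epithelium list were on it too, so presence alone does not single out smooth muscle. The *Dnmt1* transcript is not measured in small RNA, so the genotype labels were not checked here.

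All 7 members were above 0 in both libraries, and their summed value was higher in *Dnmt1*-KO, with 1 member, miR-192-5p, holding the difference on the deposited scale. The sum was 13558 in *Dnmt1*-WT and 17033 in *Dnmt1*-KO, a KO/WT ratio of 1.26 (1.23 to 1.29). Without miR-192-5p, the sum of the other 6 was 8939 and 8761, a ratio of 0.980 (0.952 to 1.01), or 1.18 with equal totals. As a share of the reads, the family made up 0.236% (Wilson interval 0.232 to 0.240%) of the WT library and 0.358% (0.353 to 0.364%) of the KO library. The 4 3p products together gave 0.880% of the family sum in WT and 1.03% in KO, so nearly all of it was 5p. In bulk tissue, more cells of a type and more RNA per cell cannot be told apart.

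**Figure D1:**
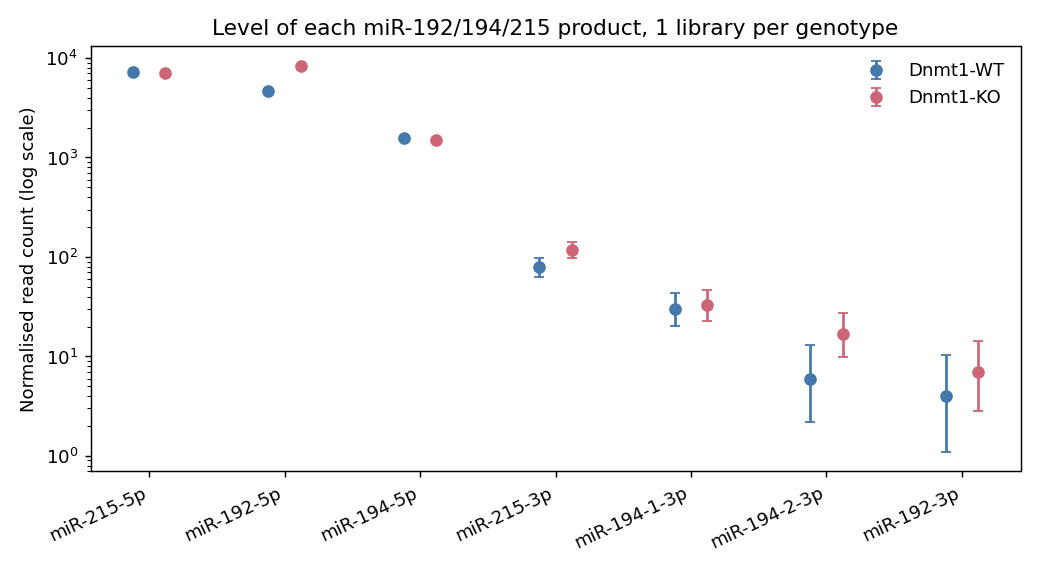
Normalised read count (log axis) of each miR-192, miR-194 and miR-215 product in the *Dnmt1*-WT and the *Dnmt1*-KO library, with bars for the 95% Poisson interval of the reads. The 5p products are above 1000 and the 3p products at or below 118, and miR-215-5p and miR-192-5p change places between the libraries.

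miR-192-5p, the main product of the chromosome 19 hairpin Mir192, had the largest difference in level of the 7. The entry mmu-miR-192-5p was at 4619 in *Dnmt1*-WT and 8272 in *Dnmt1*-KO, a ratio of 1.79 (1.73 to 1.86), or a change of 79.1%. In the order of all 1147 entries by level, it stood at place 65 in WT and place 50 in KO. With equal totals its ratio was 2.16, past the 2-fold mark, and with totals made equal without miR-143-3p it was 2.02. The table has 136 entries whose mean over both libraries reached 1000. Of these, 7 had a higher ratio than miR-192-5p and 128 a lower one, 4.41% were at least 2-fold higher on the deposited scale, and 8.09%, miR-192-5p among them, were with equal totals. The median ratio of those 136 was 0.913.

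The chromosome 1 product with the same seed, mmu-miR-215-5p, was at 7261 in *Dnmt1*-WT and 7093 in *Dnmt1*-KO, a ratio of 0.977 (0.945 to 1.01). Its places in the order of all entries were 54 and 53. The interval includes 1 on the deposited scale, and the direction depended on the scale: the ratio was 1.18 with equal totals. Within the 136 abundant entries, 59 had a higher ratio and 76 a lower one, so that miR-215-5p was near the middle where miR-192-5p was near the top.

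The product of both loci, mmu-miR-194-5p, was at 1559 in *Dnmt1*-WT and 1494 in *Dnmt1*-KO, a ratio of 0.958 (0.892 to 1.03). Here too the interval includes 1, and equal totals gave 1.16. Its ratio was close to that of miR-215-5p and far below that of miR-192-5p. Among the abundant entries, 63 had a higher ratio and 72 a lower one.

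The products with the seed UGACCUA, miR-192-5p and miR-215-5p together, were at 11880 in WT and 15364 in KO, a ratio of 1.29 (1.26 to 1.32). The reads with the miR-194-5p seed did not follow: there were 13.1 units of miR-194-5p for each 100 units of the UGACCUA products in WT and 9.72 in KO. Levels of different miRNAs within a library also depend on how well each is ligated and copied, so the KO/WT change of a proportion is the firmer comparison.

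The 3p strands were sparse. miR-215-3p, from chromosome 1, was at 79.2 in *Dnmt1*-WT and 117.7 in *Dnmt1*-KO, a ratio of 1.49 (1.11 to 2.00). miR-194-1-3p, also from chromosome 1, was at 30.1 and 32.9, a ratio of 1.09 (0.647 to 1.86). Only miR-215-3p of these had an interval above 1.

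miR-194-2-3p, from chromosome 19, was at 6.0 in *Dnmt1*-WT and 17.0 in *Dnmt1*-KO, a ratio of 2.83 (1.06 to 8.73). miR-192-3p, from the same locus, was at 4.0 and 7.0, a ratio of 1.75 (0.442 to 8.11). These values rest on 6 and 17 reads and on 4 and 7 reads, so the depth places neither on a side of the 2-fold mark.

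By level, the order in WT was miR-215-5p, miR-192-5p, miR-194-5p, miR-215-3p, miR-194-1-3p, miR-194-2-3p and miR-192-3p. In KO the first 2 were exchanged and the rest of the order was the same. miR-194-2-3p and miR-192-3p had overlapping counting intervals in both libraries, and miR-194-1-3p and miR-194-2-3p overlapped in KO (22.7 to 46.2 against 9.88 to 27.1).

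Of the 7 members, 5 were higher and 2 lower in *Dnmt1*-KO, where 50.3% of all 1147 entries were higher and 43.9% lower. A counting interval above 1 was found for 3 members (miR-192-5p, miR-215-3p and miR-194-2-3p) and for 16.7% of all entries, and one below 1 for none of the members and for 14.6% of all entries. At least 2-fold higher was 1 member, miR-194-2-3p, and none was at least 2-fold lower. Over all 1147 entries, 26.7% were at least 2-fold higher and 23.1% at least 2-fold lower, so the members' count is not above that of the table. With equal totals all 7 were higher, as were 63.2% of all entries, and 3 were at least 2-fold higher (miR-192-5p, miR-192-3p and miR-194-2-3p), where 31.5% of all entries were at least 2-fold higher and 19.1% at least 2-fold lower.

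**Figure D2:**
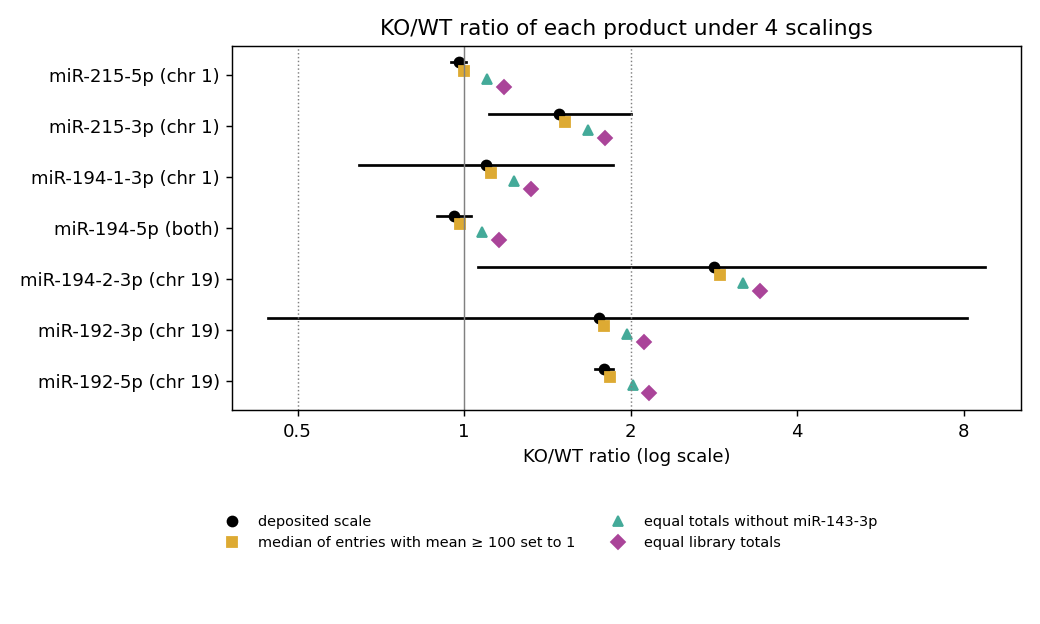
KO/WT ratio (log axis) of each product under 4 scalings of the libraries, with the locus in brackets and a line for the 95% counting interval on the deposited scale. Dotted lines mark 2-fold. miR-192-5p lies at 1.79 to 2.16 under every scaling, whereas miR-215-5p (0.977 to 1.18) and miR-194-5p (0.958 to 1.16) lie on both sides of 1.

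How far the products of the 2 loci moved apart was then asked of proportions, which do not depend on the scale. miR-192-5p made up 38.9% (38.0 to 39.8%) of the reads of miR-192-5p and miR-215-5p in *Dnmt1*-WT and 53.8% (53.0 to 54.6%) in *Dnmt1*-KO. In WT, miR-215-5p exceeded miR-192-5p by 57.2%, whereas in KO miR-192-5p exceeded miR-215-5p by 16.6%. The proportion of miR-192-5p to miR-215-5p was 1.83 times as high in KO (exact conditional interval 1.75 to 1.93), or 0.87 on the log2 scale.

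The proportion of miR-192-5p to miR-194-5p was also higher in KO, by a factor of 1.87 (1.72 to 2.03), and a copy of miR-194 lies 115 bases from Mir192. In contrast, the proportion of miR-194-5p to miR-215-5p had a factor of 0.981 (0.906 to 1.06), which includes 1. miR-194-5p was 17.7% of the reads of this pair in WT and 17.4% in KO.

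The miR-194 3p strands, which tell the copies apart, were too few to settle the same question. miR-194-2-3p was 16.7% (7.87 to 31.9%) of the 36 reads of both strands in WT and 34.0% (22.4 to 47.8%) of the 50 reads in KO. The proportion was 2.55 times as high in KO with an interval of 0.821 to 8.97, which includes both 1 and the 1.83 of miR-192-5p to miR-215-5p. A difference between the miR-194 copies was thus not detectable at this depth.

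Summed by locus without miR-194-5p, the chromosome 19 products were at 4629 in WT and 8296 in KO, a ratio of 1.79 (1.73 to 1.86). The chromosome 1 products were at 7370 and 7244, a ratio of 0.983 (0.951 to 1.02). The proportion of chromosome 19 to chromosome 1 products was 1.82 times as high in KO (1.74 to 1.91). miR-192-5p and miR-215-5p give nearly all of these reads, so this is largely their comparison again.

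Within each locus, most pairs rested on few reads of the 3p strand. miR-194-2-3p to miR-192-5p had a factor of 1.57 (0.591 to 4.88), and miR-194-1-3p to miR-215-5p had a factor of 1.12 (0.661 to 1.90). The strands of Mir192 had a factor of 0.972 for 3p to 5p (0.247 to 4.53). These 3 intervals include 1 and are wide, so divergence within a locus could not be measured for them. The strands of Mir215 had an interval that leaves out 1: miR-215-3p was 1.08% of the reads of its hairpin in WT and 1.63% in KO, a factor of 1.52 (1.13 to 2.05). In all, 10 proportions were compared, and 5 had an interval that leaves out 1.

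**Figure D3:**
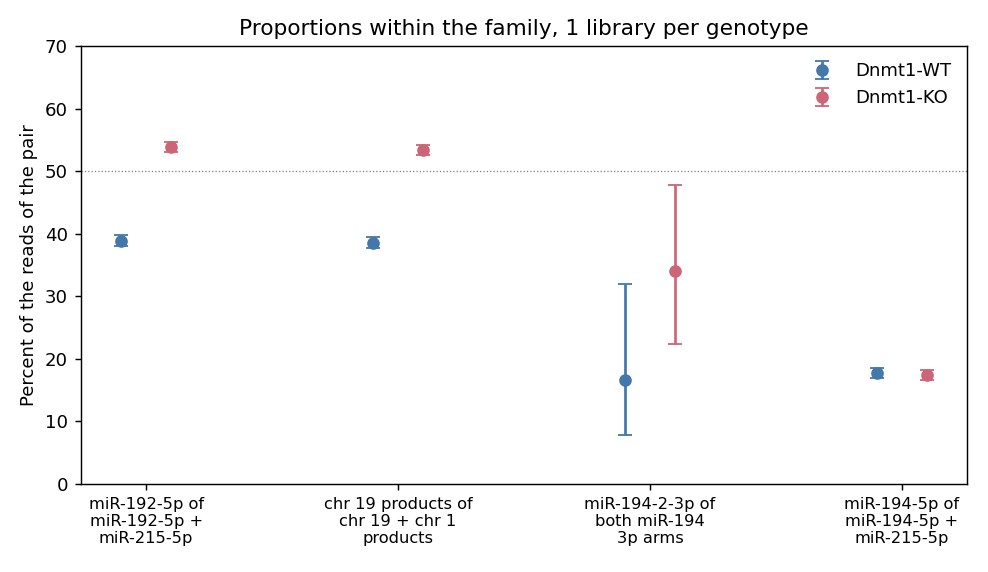
Share of the first product in the reads of each pair, in percent, in the *Dnmt1*-WT and the *Dnmt1*-KO library, with 95% Wilson intervals. miR-192-5p set against miR-215-5p, and the chromosome 19 set against the chromosome 1 products, are below 50% in WT and above it in KO, the miR-194 3p strands have overlapping intervals, and miR-194-5p to miR-215-5p is 17.7% and 17.4%.

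To place this divergence, all pairs of mature miRNAs with the same seed and a mean of at least 1000 each were compared in the same way. RefSeq sequences of the same name were found for 918 of 1080 mature entries, which gave 77 pairs with 17 seeds. The log2 KO/WT ratios of these pairs were a median of 0.48 apart, with a range of 0.01 to 1.52. miR-192-5p and miR-215-5p were 0.87 apart, and 12 pairs (15.6%), including this one, were at least as far. Of the 17 seeds, 9 had such a pair. Pairs share members and libraries, so these counts are a description. The 5 pairs farthest apart were miR-10b-5p and miR-10a-5p (1.52), miR-148a-3p and miR-152-3p (1.46), miR-322-5p and miR-16-5p (1.40), miR-322-5p and miR-497a-5p (1.38), and miR-181c-5p and miR-181b-5p (1.24). A divergence of this size between relatives was thus found for other seeds as well.

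**Figure D4:**
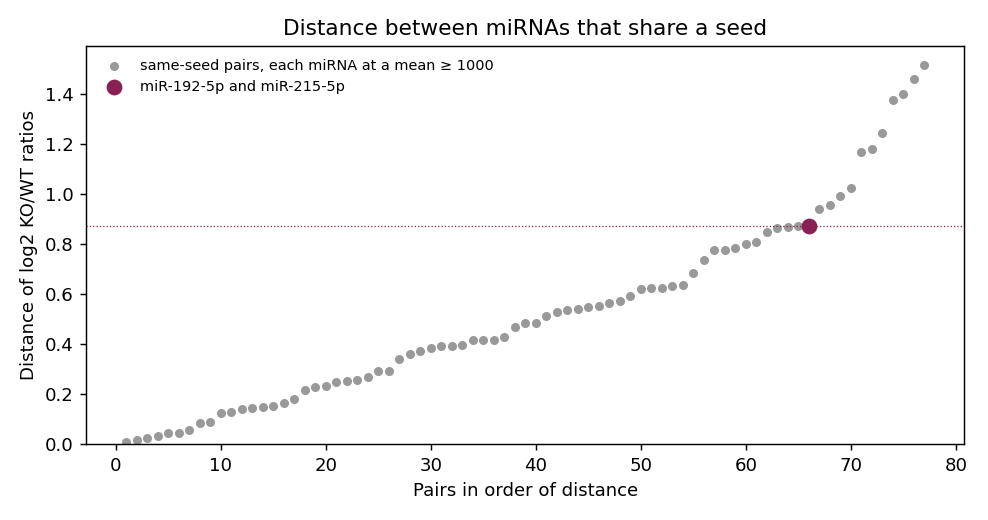
Distance between the log2 KO/WT ratios of the members of each of 77 same-seed pairs with means of at least 1000, in rising order. The pair of miR-192-5p and miR-215-5p is at 0.87, in the upper part of the range that ends at 1.52.

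Other miRNAs of the intestinal epithelium were examined because this family is abundant in those cells. The list held 12 miRNAs, among them the miR-200 family, which keeps epithelial cells in their state, and miR-375, which is known from enteroendocrine cells. All 12 were present, as 18 entries whose summed value was 2449 in *Dnmt1*-WT and 3286 in *Dnmt1*-KO, a ratio of 1.34. None was at 0 in WT and 1, miR-802-3p, was at 0 in KO. Their part in the values of the family was not tested. At a mean of 10 or more there were 13 of them, of which 10 were higher and 3 lower, with a median ratio of 1.30, where 51.6% of all 543 entries at that level were higher and 47.9% lower, with a median of 1.04. With equal totals all 13 were higher, against 65.9% of the 543, with a median of 1.57 against 1.25.

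The most abundant of the epithelial entries did not share 1 ratio either. miR-203-3p, known from stratified epithelium, was at 407.2 and 822.7, a ratio of 2.02 (1.79 to 2.28). miR-200b-3p was at 422.2 and 596.3, a ratio of 1.41 (1.24 to 1.60). miR-31-5p was at 354.0 and 313.1, which gave 0.884 (0.757 to 1.03), or 1.07 with equal totals. The ratio of miR-192-5p lay between those of miR-203-3p and miR-200b-3p, and the ratio of miR-215-5p lay between those of miR-200b-3p and miR-31-5p.

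**Figure D5:**
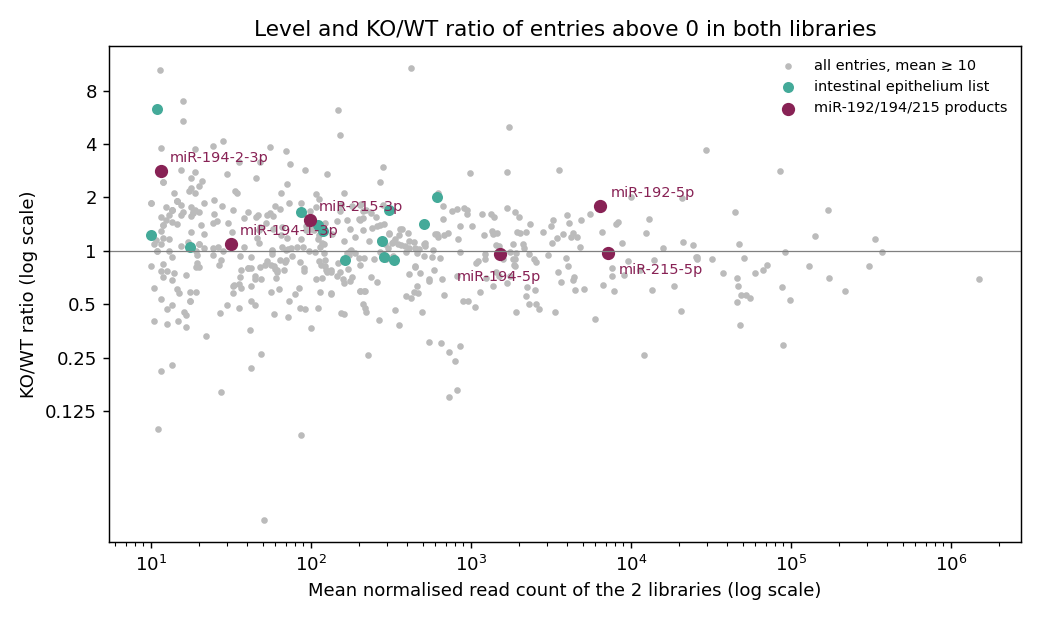
KO/WT ratio against the mean normalised read count of the 2 libraries (both axes log) for entries with a mean of at least 10 and above 0 in both, with the intestinal epithelium list and the miR-192, miR-194 and miR-215 products marked. miR-192-5p stands apart from miR-215-5p and miR-194-5p, which lie near a ratio of 1, and the other epithelial entries lie between 0.884 and 6.33. The highest of these is miR-200a-5p, at only 3 in WT and 19 in KO, and the next is miR-203-3p at 2.02.

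Markers of other cell types moved between the libraries as well, and their part in the family's values was likewise not tested. miR-122-5p, which marks liver cells, was at 72.2 in *Dnmt1*-WT and 769.8 in *Dnmt1*-KO, a ratio of 10.7 (8.37 to 13.8), and miR-122-3p was at 0 and 1. All 5 entries of the red cell list were higher in KO, with a summed value of 12823 in WT and 47355 in KO. Nearly all of that sum was miR-486a-5p, at 12592 in WT and 46756 in KO. The most abundant were miR-486a-5p (ratio 3.71), miR-451a (2.98) and miR-486b-3p (1.76). Of the 11 entries of the leukocyte list, 10 were higher, with sums of 14626 and 24137, and the most abundant were miR-146a-5p (ratio 1.26), miR-146b-5p (2.85) and miR-142a-5p (5.01). Of the 12 entries of the smooth muscle list, 10 were lower, with a summed ratio of 0.652. Its most abundant entries, miR-143-3p, miR-145a-5p and miR-133a-3p, had ratios of 0.694, 0.598 and 0.295. Of all 1147 entries, 50.3% were higher and 43.9% lower.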

How the data were processed

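Small RNA from the jejunal tunica muscularis was isolated with a mirVana kit, made into TruSeq Small RNA libraries and sequenced, with 1 library per genotype. Per the study's methods, a commercial provider did the sequencing and the reference was GRCm38, and the submitters' processing notes name Bowtie and mm10. Who ran the alignment is not stated. How reads that fit more than 1 miRNA were handled, the scaling method and the release of the miRNA database are not given in the sources used here, so reads of the near-identical miR-192-5p and miR-215-5p could in part be exchanged.

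The deposited table gives normalised read counts with 1 decimal. Between 20 and 300, 88.6% of the 229 values in WT were whole multiples of 1.0028 within 0.06, as were 91.1% of the 248 values in KO for a step of 0.99718. Values divided by these steps and rounded were taken as reads, 5725617 and 4768099 in all. A column with the authors' own fold change was not used.

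A KO/WT ratio is that of the deposited values, without pseudocount. Its interval is the exact Clopper-Pearson interval of the KO share of reads, a proportion between 2 products has the exact conditional interval of the odds ratio, and shares have Wilson intervals (scipy 1.17.1, Python 3.11.15). The 3 other scalings, pseudocounts of 1 and 10, minimum means and other sums of products were tried. Every member was named, with the 3 most abundant of each list, the 5 same-seed pairs farthest apart and the 3 entries nearest in ratio to miR-192-5p and to miR-215-5p. Sequences come from RefSeq (GRCm38.p6) and annotation from GENCODE M21. The members, lists and comparisons were chosen with earlier results of these data known.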

Additional observations from a re-analysis of the deposited data

How the results depend on the processing

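No paired analysis was possible because there was 1 library per genotype. For the same reason no replicate could be left out. Equal totals moved the KO/WT ratios of miR-192-5p, miR-194-5p, miR-215-5p and the summed family to 2.16, 1.16, 1.18 and 1.52, and equal totals without miR-143-3p to 2.02, 1.08, 1.10 and 1.41. Setting the median of entries with a mean of at least 100 to 1 moved the family sum to 1.29. The number of members at least 2-fold higher, 1 in the report, was 3 with equal totals, 2 with equal totals without miR-143-3p and 0 at a mean of at least 100, where fewer members are counted. The 3p members stayed within their intervals under all 20 of their alternatives. They also stayed above 1, but none of these alternatives could have changed that. The 3 other scalings raise every KO/WT ratio, and a pseudocount only draws a ratio towards 1. On the deposited scale the intervals of miR-192-3p and miR-194-1-3p include 1. Counting only the miR-194 3p strands moved the change in proportion between the loci from 1.82 to 2.55, with the wide interval given above. At a minimum mean of 100, 21 of 107 same-seed pairs were at least as far apart as miR-192-5p and miR-215-5p. Over all entries, the 306 higher and 265 lower by 2-fold fell to 62 higher and 54 lower when a mean of 10 was required, and to 20 higher and 28 lower when it was 100.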

Other observations

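Strands cut from 1 hairpin give a second measure of how far ratios move apart within these libraries. In 12 hairpins each strand reached a mean of 1000. The log2 KO/WT ratios of their strands were a median of 0.37 apart, and 1 hairpin was at least as far apart as the 0.87 of miR-192-5p and miR-215-5p. At a mean of at least 100, the median was 0.49 over 62 hairpins and 15 were at least as far apart (24.2%). The hairpins of the miR-192, miR-194 and miR-215 family have too few 3p reads to be among them. The nearest was Mir215, with miR-215-3p at a mean of 98.45. Its strands were 0.60 apart, which is close to the median of the 62 hairpins.

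Among mature entries that reached a mean of 1000, the ratios nearest to that of miR-192-5p were those of miR-221-3p (1233 in *Dnmt1*-WT and 2161 in *Dnmt1*-KO, ratio 1.75), miR-127-3p (1.70) and miR-541-5p (1.66). Those nearest to miR-215-5p were miR-425-5p (1946 and 1900, ratio 0.976), miR-433-3p (0.984) and let-7f-5p (0.986). With 2 libraries, likeness is a single ratio and says nothing of a shared pattern across samples.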
